A study of Mus musculus with 6 samples.

Results

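The genes of the LINC complex and of the nuclear lamina were examined in the open chromatin of hearts of newborn mice. The 10 genes, Sun1, Sun2, Syne1, Syne2, Syne3, Lmna, Lmnb1, Lmnb2, Emd and Lbr, were chosen by name from 21938 protein-coding genes outside the mitochondrial genome. For each, every peak overlapping the gene body or 10 kb to either side was taken from the GENCODE M21 annotation of GRCm38 (mm10), and peaks at promoters, in coding exons and in introns were kept apart. Open chromatin was mapped by Omni-ATAC-Seq, which relies on a transposase that cuts accessible DNA, in whole hearts at postnatal day 1, with 50000 nuclei per library purified over a 2.2 M sucrose cushion. There were 3 groups, each with 2 biological replicates. The Input libraries are nuclei of wildtype hearts used as they came from the cushion. The Myc libraries are nuclei of Nkx2-5 Cre/+; R26RSun1-Myc-Egfp/+ hearts captured with a Myc antibody by magnet-assisted nuclei immunoprecipitation (MAN-IP). The PCM1 libraries are nuclei of hearts labelled WT, captured in the same way with an antibody to PCM1, a pericentriolar protein that surrounds cardiomyocyte nuclei. Nkx2-5 Cre is active in cardiac progenitors, whose descendants include cardiomyocytes, smooth muscle and endothelial cells, and the captured protein of the Myc hearts is a Sun1 fusion expressed from the ROSA26 locus. Antibody and genotype change together between the Myc group and the others, and their parts cannot be told apart.

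SUN proteins span the inner nuclear membrane and bind, in the space between the membranes, the KASH domains of nesprins, the proteins of the Syne genes. This bridge, the LINC complex, ties the cytoskeleton to the lamina, a meshwork of A-type lamins from Lmna and B-type lamins from Lmnb1 and Lmnb2. Emerin (Emd) and the lamin B receptor (Lbr) are inner membrane proteins that bind lamins and chromatin. In the beating heart the nucleus is under repeated strain, and inherited changes in lamin A/C and emerin are known causes of cardiomyopathy and muscular dystrophy.

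The Sun1 sequences shown here are of the 2 coding exons that had a peak in all 4 Myc and PCM1 libraries and in neither Input library. Both lie on chromosome 5 on the plus strand, at chr5:139223542-139223829 (exon 3 of transcript Sun1-201) and chr5:139225249-139225476 (exon 4). They were read from the RefSeq GRCm38.p6 genome, with coding sequence of Sun1-201 in capitals and all else in lower case. The first stretch is the whole merged region, and the other is the peak of Myc replicate 1, shown in place of a longer merged region. Capitals make up 66.7% of the first and 81.1% of the other. With coding sequence of any Sun1 transcript counted, 71.5% of the merged region over exon 3 was coding, and 58.0% of that over exon 4.
Sun1 exon 3: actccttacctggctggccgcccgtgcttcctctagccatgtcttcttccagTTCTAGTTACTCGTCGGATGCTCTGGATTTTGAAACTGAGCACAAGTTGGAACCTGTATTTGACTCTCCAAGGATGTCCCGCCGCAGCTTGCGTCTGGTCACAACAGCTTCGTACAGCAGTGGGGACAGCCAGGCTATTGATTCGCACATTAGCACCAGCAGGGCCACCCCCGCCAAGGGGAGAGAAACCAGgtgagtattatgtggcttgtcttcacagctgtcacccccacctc
Sun1 exon 4: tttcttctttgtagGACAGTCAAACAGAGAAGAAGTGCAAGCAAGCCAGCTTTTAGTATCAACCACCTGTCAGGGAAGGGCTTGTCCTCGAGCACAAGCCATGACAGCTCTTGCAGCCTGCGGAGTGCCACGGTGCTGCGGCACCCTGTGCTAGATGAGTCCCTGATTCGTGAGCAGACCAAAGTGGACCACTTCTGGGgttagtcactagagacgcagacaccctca

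The 250 bases before a start are shown for 4 promoters, with each CG dinucleotide in capitals, from the RefSeq promoter table (GRCm38). They are chr5:139200387-139200636 for Sun1 on the plus strand, chr3:88493313-88493562 for the internal start of Lmna on the minus strand, chrX:74254437-74254686 for Emd on the plus strand and chr10:80918246-80918495 for Lmnb2 on the minus strand. Sun1 and Lmna had the strongest promoter peaks, Emd one of intermediate strength, and Lmnb2 the most variable. For Lmna the summit lay inside the gene in every library, and so outside the stretch shown. The Lmna peak covered only the part of that stretch nearest the start, so its sequence is not that of the most open site.
Sun1 promoter: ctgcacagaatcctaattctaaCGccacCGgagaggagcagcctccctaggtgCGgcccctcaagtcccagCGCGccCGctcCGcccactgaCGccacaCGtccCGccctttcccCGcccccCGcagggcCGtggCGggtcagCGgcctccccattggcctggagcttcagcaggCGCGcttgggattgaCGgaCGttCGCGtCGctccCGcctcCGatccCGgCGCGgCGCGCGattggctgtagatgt
Lmna promoter: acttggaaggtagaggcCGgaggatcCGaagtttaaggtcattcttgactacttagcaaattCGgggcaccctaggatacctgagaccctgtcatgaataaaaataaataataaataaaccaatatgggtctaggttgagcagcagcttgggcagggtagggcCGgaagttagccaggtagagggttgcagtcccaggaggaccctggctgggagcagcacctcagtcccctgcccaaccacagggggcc
Emd promoter: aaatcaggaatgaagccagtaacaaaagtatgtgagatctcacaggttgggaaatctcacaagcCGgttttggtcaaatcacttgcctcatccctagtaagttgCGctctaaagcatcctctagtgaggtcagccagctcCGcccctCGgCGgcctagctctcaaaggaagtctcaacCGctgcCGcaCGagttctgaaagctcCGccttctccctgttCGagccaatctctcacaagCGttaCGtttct
Lmnb2 promoter: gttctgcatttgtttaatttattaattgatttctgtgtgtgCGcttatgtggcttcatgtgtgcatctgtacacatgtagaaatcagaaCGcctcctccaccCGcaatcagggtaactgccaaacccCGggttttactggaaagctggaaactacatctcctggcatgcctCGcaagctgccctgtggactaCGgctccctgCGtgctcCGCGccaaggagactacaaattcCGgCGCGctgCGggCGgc
The Sun1 stretch holds 30 CG dinucleotides, that of Lmnb2 14, that of Emd 12 and that of Lmna 4. The table gave 14 windows of 300 bases for 9 of the genes, from 250 bases before to 50 after a start, and none for Lmnb1. The GC box GGGCGG, searched on both strands, was in 8 of the 14 windows, in 1 each of 8 genes, beside 35.7% of all 32851 windows. CCAAT, on both strands, was in 6 of the 14, beside 37.4% of all windows. Many other genes share these letters, and a match is not a binding site.

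The peak caller MACS2 had been run by the authors on every library separately, keeping peaks of a q-value of up to 0.05. The deposited lists hold between 75336 and 131500 peaks. The most frequent local background, solved from the fold and p-value of each summit, was 3.96 and 1.02 tags in Input, 1.44 in each Myc library, and 0.977 and 0.903 in PCM1, so Input replicate 1 was the deepest by far and was 4.38 times as deep as the shallowest. Each peak was given its rank percentile by -log10 q within its library, where 100 is the strongest peak and 0 stands for no peak. No test between groups was made, since groups of 2 libraries cannot reach 0.05: the smallest p an exact permutation test allows is 0.0667 for 2 libraries against 4, one-sided, and 0.333 for 2 against 2, two-sided. A missing peak means that none was detectable at the depth of that library. Of 12 cardiomyocyte markers, 11 had a promoter peak in all 6 libraries and Myh7 lacked one in Myc replicate 1. Of the other lists, 6 of 8 fibroblast, 7 of 8 endothelial, 2 of 4 smooth muscle and 2 of 4 epicardial markers had one in all 6, and the 4 immune markers Ptprc, Csf1r, Cd68 and Adgre1 had none in any. The median percentile of the 12 cardiomyocyte promoters ran from 89.3 to 96.5 over the libraries, and that of the 8 fibroblast promoters from 49.7 to 77.1. The libraries labelled PCM1, whose hearts are labelled WT, share peaks over Sun1 coding exons with the Myc libraries, whose hearts carry a Sun1 fusion gene. Peaks with summits in Sun1 coding exons are counted for each library.

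All 10 genes had an open promoter in all 6 libraries. A promoter peak, one whose summit lies within 1 kb of the start of a protein-coding transcript, was found in every library for all 10, beside 58.9% of all protein-coding genes. The median percentile of the 10 strongest promoter peaks was 95.4 ± 2.22 in Input, 94.0 ± 0.193 in Myc and 94.5 ± 0.418 in PCM1 (mean of library medians ± SD, n = 2). The medians over all protein-coding genes, with 0 for those without a promoter peak, were 73.2, 79.2 and 63.6. Among genes with a promoter peak the medians were closer, at 92.2 and 87.6 (Input), 92.6 and 92.6 (Myc) and 87.2 and 86.9 (PCM1). The 10 genes lay above these in every library, by least in Myc. The group means of the 10 genes differed by less than the spread of the Input replicates.

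**Figure D1:**
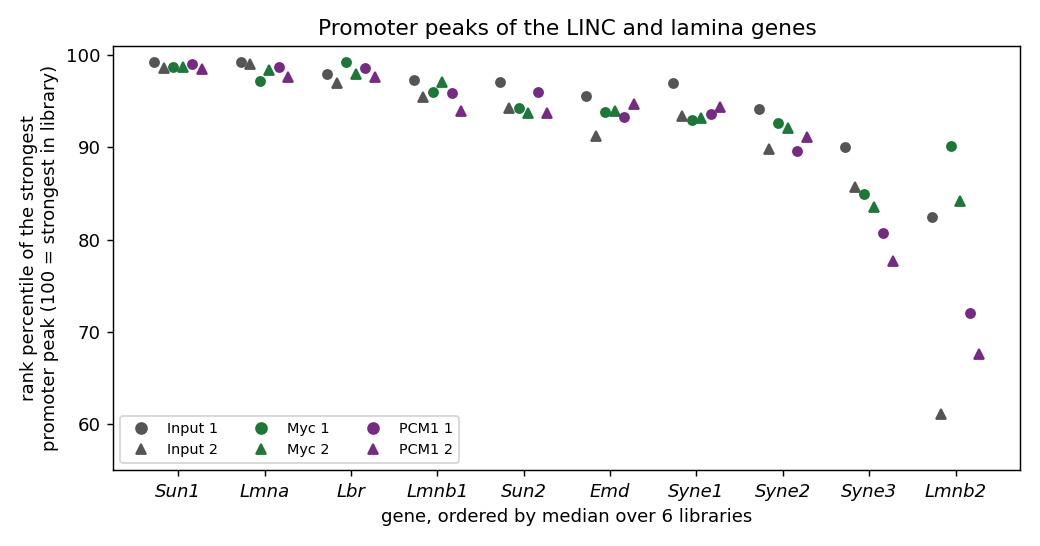
Rank percentile of the strongest promoter peak (vertical axis, starting at 55) of each gene in each of the 6 libraries, circles for replicate 1 and triangles for replicate 2, with genes ordered by their median. Sun1 stays between 98.5 and 99.3, and Lmnb2 spreads from 61.1 to 90.2 with both Myc libraries on top.

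Sun1, which encodes an inner membrane anchor of the LINC bridge, had one of the strongest promoters. Its percentile was 99.3 and 98.6 (Input), 98.7 and 98.7 (Myc) and 99.0 and 98.5 (PCM1), and the groups overlapped. The summit lay between 56 and 123 bp before the nearest start, and the fold over local background was between 17.9 and 21.2. Sun2, its paralogue, reached 97.1 and 94.3 in the Input libraries, 94.3 and 93.7 in those of Myc, and 96.0 and 93.7 in those of PCM1. The groups overlapped for Sun2 as well.

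The nesprin promoters were lower than that of Sun1 in every library, while the range of Syne1 overlapped that of Sun2. Syne1 is a gene of 530.6 kb, and its strongest promoter peak was at the start of the short transcript Syne1-202, 482 kb from the 5' end. The same region (chr10:5068528-5069530) holds the start of the neighbouring gene Gm10097, and which start it belongs to cannot be told apart. It had percentiles of 97.0 and 93.4 (Input), 92.9 and 93.2 (Myc) and 93.6 and 94.4 (PCM1). The peak at the 5' starts of Syne1 was far weaker, from 35.5 in Myc replicate 2 to 77.4 in Input replicate 1. Another promoter peak, at Syne1-206, lay 357 kb from the 5' end and ran from 82.0 to 91.9. For Syne2 the order was reversed, with the 5' promoter strongest at 94.1 and 89.8 (Input), 92.6 and 92.1 (Myc) and 89.6 and 91.1 (PCM1). Its internal starts Syne2-205 and Syne2-215, 254 and 264 kb downstream, also had peaks in all 6 libraries, with percentiles between 37.3 and 74.6. Syne3 had 90.0 and 85.7 in Input, then 84.9 and 83.6 in Myc and, lowest, 80.7 and 77.7 in PCM1, and these 3 groups did not overlap. Both PCM1 libraries were lowest for 34.0% of the 12918 genes with a promoter peak in all 6 libraries. With the same number of peaks in every library, Myc (78.5 and 76.3) and PCM1 (78.7 and 75.8) overlapped for Syne3. In PCM1 replicate 1 the strongest Syne3 summit lay 24 bp before the start, and in the other 5 libraries between 931 and 964 bp inside the gene.

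Among lamins and their partners, Lmna had 3 promoter regions, each present in all 6 libraries. The strongest was at the internal start Lmna-202, 16.6 kb from the 5' end, with 99.2 and 99.1 (Input), 97.2 and 98.4 (Myc) and 98.7 and 97.7 (PCM1). The regions at the starts of Lmna-201 and Lmna-206 ran from 94.2 to 98.0 and from 93.3 to 97.9. Lbr ran from 97.0 to 99.3, Lmnb1 from 93.9 to 97.3 and Emd from 91.3 to 95.6, with the groups overlapping in each.

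Lmnb2, the other B-type lamin gene, had the promoter peak with the lowest mean percentile over the 6 libraries, 76.3, and the largest SD, 11.1, of the 10 genes, although Syne3 was lower in both Myc libraries. Its percentile was 82.5 and 61.1 (Input), 90.2 and 84.1 (Myc) and 72.1 and 67.6 (PCM1). Both Myc libraries were above the other 4, and Input and PCM1 overlapped. The pileup at its summit was 68.7 and 49.4 times the genome background in Myc, 33.4 and 27.3 times in Input, and 36.9 and 33.2 times in PCM1. Such a position of Myc was common, since 30.9% of the 12918 genes with a promoter peak in all 6 libraries had both Myc libraries above the rest, and Lmnb2 was the sole such gene among the 10. With the same number of peaks in every library, Lmnb2 was still higher in both Myc libraries, at 86.0 and 77.2 beside 61.1 to 69.4 in the others. The median percentile of the 12 cardiomyocyte marker promoters was 96.1 and 94.3 (Input), 89.3 and 91.5 (Myc) and 94.6 and 96.5 (PCM1), with both Myc libraries lowest. Not every marker followed this order, since Actn2, Ryr2 and Pln were higher in both Myc libraries than in both PCM1 libraries. The median of the 8 fibroblast markers was 77.1 and 54.9 (Input), 70.1 and 73.7 (Myc) and 51.9 and 49.7 (PCM1), with Myc inside the range of Input and PCM1 below both. The part of these markers in the position of Lmnb2 was not tested.

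The other ways in which both libraries of a group could stand apart held for few of the 10 genes. Both Input libraries were above the rest for Syne3 and Lmna (4.79% of all such genes) and below for none (1.43%). Both Myc libraries were below the rest for Syne1 (4.42%). Both PCM1 libraries were below the rest for Syne3 (34.0%) and above for none (2.19%). With the same number of peaks per library, Input was above for Syne3 and Lmna (8.0% of 12653 genes) and below for Lbr (8.46%), Myc was above for Lmnb2 (36.0%) and below for Sun1, Sun2 and Syne1 (10.2%), and PCM1 was above for Emd (8.95%) and below for none (30.4%), so Syne3 no longer separated PCM1 from the rest.

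The windows of the 10 genes held 138 and 72 peaks (Input), 113 and 119 (Myc) and 91 and 94 (PCM1). Within Input, the deeper library had more peaks. With the same number of peaks in every library, the group means were 76.5 (Input), 85 (Myc) and 88 (PCM1), so PCM1 went from the lowest mean to the highest. Merging peaks that overlap by at least 1 bp gave 170 regions, of which 102 were intronic, 25 at promoters of the 10 genes, 14 in coding exons, 1 in another exon, 8 at promoters of neighbouring genes and 20 in flanking sequence, by the strongest summit. Syne1 had 47 regions, Syne2 42 and Syne3 20, while Lmnb2 had 3 and Lbr 4. Of the 170, 57 were in all 6 libraries, which is 33.5% beside 28.8% of all 169881 merged regions. In 1 library were 49, or 28.8% beside 30.4%. Both shares were near the background.

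**Figure D2:**
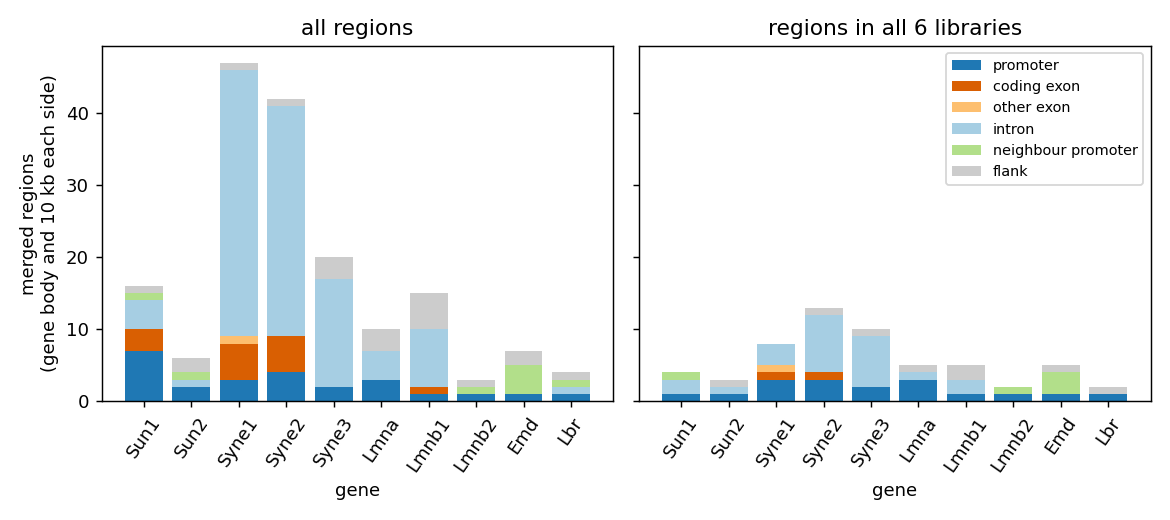
Number of merged regions per gene by class, stacked, for all regions (left) and for those present in all 6 libraries (right). Introns of Syne1, Syne2 and Syne3 hold most regions, and every gene keeps at least 1 promoter region in all 6 libraries.

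Away from promoters, several sites were open in every library. The strongest was in an intron of Sun2, 6.92 kb from the 5' end (chr15:79735114-79735963), with percentiles of 97.9 and 93.4 (Input), 91.7 and 94.6 (Myc) and 98.7 and 98.5 (PCM1). Its range overlapped that of the Sun2 promoter. In Syne1 an intronic region 343 kb from the 5' end (chr10:5207991-5208724) ran from 85.7 to 91.7. Downstream of Syne2, a region 300 kb from its 5' end (chr12:76117562-76118059) ran from 84.2 to 91.4, and upstream of Syne3 a region at 10.3 kb (chr12:105019373-105020373) from 84.2 to 91.1. Intron regions of Lmnb1, 1.15 kb from its start, ran from 82.1 to 92.0, and of Sun1, 20.1 kb from its start, from 19.1 to 71.5. Flanking regions of Lmna, Emd and Lbr reached weakest percentiles of 70.7, 68.8 and 33.9, and Lmnb2 had no such region in all 6 libraries.

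Regions in both libraries of 1 group and no other library were rare. Input had 1, in an intron of Syne2 133 kb from its 5' end, with percentiles of 27.9 and 27.8 (1.08% of all regions have this pattern). Myc had 2, in introns of Syne1 390 and 30.8 kb from its 5' end, with 26.8 and 41.6 in one and 36.0 and 18.2 in the other (1.84%). PCM1 had 1, over exon 13 of Sun1, with 41.3 and 29.6 (0.254%). All 4 lay in the weaker part of each list.

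Regions absent from 1 group alone were examined after their values were seen. In neither PCM1 library but in all 4 others were 6 of the 170 regions, beside 2.26% of all regions: 4 of Syne1, 1 of Lmna and 1 of Sun2. The strongest of these were a Lmna region 26.1 kb from the 5' end, at 62.4 and 60.0 in Input and 57.8 and 65.4 in Myc, and a Syne1 region 3.6 kb upstream of the 5' end, at 64.7 and 50.3 in Input and 55.9 and 60.7 in Myc. No region was absent from Myc alone (0.268%). Absent from Input alone were 2, both over coding exons of Sun1 (0.104%).

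Sun1 had peaks with summits in its coding exons in all 4 Myc and PCM1 libraries and in neither Input library. In all, 18 peaks had their summit in coding sequence of Sun1, 4 and 4 in Myc, 3 and 7 in PCM1 and 0 in each Input library, and they merged into 7 regions. Each lay over 1 exon of Sun1-201, and 7 of its 22 coding exons were hit, with a median length of 185 bp beside 94 bp for the exons without a summit. They encode stretches between residues 1 and 556 of 913. In the median, 78.9% of a peak's length was coding, and peaks were between 200 and 313 bp long. These summits had been noted in these data before, so they are given as a description. Their source was not tested.

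**Figure D3:**
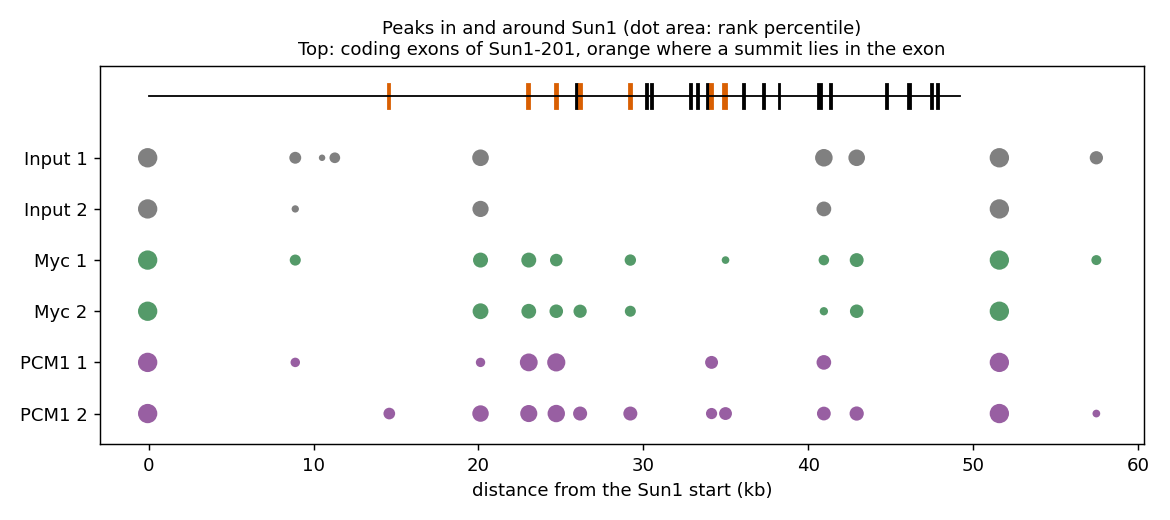
Merged regions in and around Sun1 by distance from its start in kb, 1 row per library, with dot area growing with the rank percentile, and the coding exons of Sun1-201 on top, orange where a summit lies in the exon. Under the orange exons, from 14.6 to 35.0 kb, only rows of Myc and PCM1 hold dots, and at 14.6 kb only PCM1 replicate 2 does. All 6 rows hold a dot at 20.1 kb, in an intron between these exons.

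The classing of these peaks depended on the annotation. Promoters were first taken around every protein-coding start, and 10 of the 18 peaks lie within 1 kb of starts of transcripts annotated as incomplete at their 5' end. By that rule 2 and 2 peaks in Myc, 1 and 3 in PCM1 and 0 in Input were coding-exon peaks, in 3 regions. With complete starts only, a choice made after the data were seen, all 18 were, in 7 regions. At least 1 coding-exon region seen in captured nuclei (Myc or PCM1) but absent from Input was found in 3.43% of all genes by the first rule and 3.55% by the other, and Sun1 was 1 of 4 genes with 3 or more, or 0.0182%, by either. By the first rule Sun1 reached 3 only through the region over exon 2, a peak of PCM1 replicate 2 alone. Its summit lies within 1 kb of a Sun1 start in the RefSeq promoter table, at chr5:139215158, which neither rule counted. The other genes with 3 or more, named after their values were seen, were Dync1h1, the heavy chain of cytoplasmic dynein, Sash1 and Ttn, which encodes the sarcomere protein titin. Of regions in at least 2 of the 4 Myc and PCM1 libraries and no Input library, Sun1 had 6 with complete starts, and the genes nearest to it by this count, Camta1 and Col28a1, had 2. By the first rule the 3 genes tied at 2, and 146 genes had 1.

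Exon 3 and exon 4 were covered in all 4 Myc and PCM1 libraries. Over exon 3 the Myc libraries had percentiles of 57.0 and 55.5 and the PCM1 libraries 83.1 and 76.1. Over exon 4 the values were 38.6 and 45.9 for Myc, against 86.5 and 79.1 for PCM1. PCM1 was above Myc in both exons, with no overlap, and how common this order is over all regions was not counted. Exon 7 had peaks in both Myc libraries and PCM1 replicate 2, at 30.8, 28.4 and 49.3. Exon 6 had them in Myc replicate 2 and PCM1 replicate 2, at 43.5 and 49.7, exon 14 in Myc replicate 1 and PCM1 replicate 2, at 10.8 and 40.7, and exon 2 in PCM1 replicate 2, at 32.6. With exon 13, given above, PCM1 replicate 2 had a peak over each of the 7 exons.

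The heights of these peaks were modest beside the promoter. In each library the strongest exon summit reached 19.4 and 20.2 times the genome background in Myc and 62.5 and 53.1 times in PCM1, while the promoter of Sun1 reached between 183 and 221 times over the 6 libraries. The strongest exon summit was 10.6 and 10.9% of the promoter's pileup in Myc, and 29.9 and 25.8% in PCM1. Over exon 3 the pileup was 28 tags (95% Poisson interval 18.6 to 40.5) in Myc replicate 1, 29 (19.4 to 41.6) in Myc replicate 2, 53 (39.7 to 69.3) in PCM1 replicate 1 and 43 (31.1 to 57.9) in PCM1 replicate 2. The intervals cover counting error only.

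**Figure D4:**
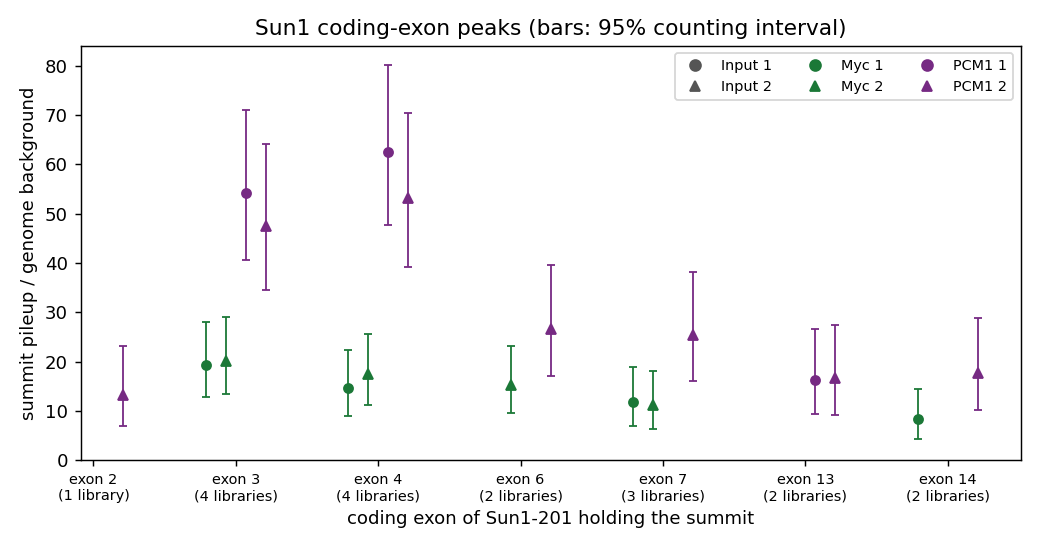
Summit pileup over the genome background of the library (vertical axis, from 0) for the 18 Sun1 peaks by the coding exon of Sun1-201 they lie in, with 95% counting intervals. PCM1 lies above Myc over exons 3 and 4, and Input has no point because neither library has a peak there.

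Input replicate 1 listed peaks far weaker than these, since 40.5% of its peaks had a pileup over background at or under that of the weakest Sun1 exon peak, at 8.33, whereas in Input replicate 2 this share was 4.40%. Neither had a peak in any of the 7 regions, and the part of depth in this was not tested. The Sun1 coding-exon peaks were counted within each library, so leaving out both PCM1 or both Myc libraries cannot change the counts of the other group. These are 2 and 2 in Myc and 1 and 3 in PCM1 by the first rule, or 4 and 4, and 3 and 7, with complete starts. The 2 Input libraries did have peaks elsewhere in Sun1. Both had the intronic region 20.1 kb from the start, and both had a peak in a region 40.9 kb from the start (chr5:139241151-139241992), which spans exon 18 and the first bases of exon 19 and had its summits in the intron between them, with 80.4 and 55.5 (Input), 25.4 and 13.8 (Myc) and 54.4 and 47.6 (PCM1).

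The coding exons of the other 9 genes behaved otherwise. They held 15 regions with a coding summit, 7 in Syne1, 6 in Syne2, 1 in Lmna and 1 in Lmnb1, and 12 of the 15 also had a peak in an Input library. None of the other 3 was in more than 1 library. In Syne1 a region 262 kb from the 5' end (chr10:5288761-5289894) ran from 77.9 to 89.5 over the 6 libraries, and in Syne2 one 287 kb from the 5' end (chr12:76104462-76105391) from 78.9 to 90.0. Both were open in every library. Syne1 regions 246 and 234 kb from the 5' end were in 5 libraries, with percentiles from 31.6 to 42.2 and from 15.4 to 64.0, and each was missing in Input replicate 2. A Syne1 region at 366 kb, with 1 coding summit, was in all 6 at 23.9 to 64.9. Syne1 regions at 398 and 440 kb and a Syne2 region at 101 kb were in Input replicate 1 and both Myc libraries, at 14.2 to 60.0, and not in PCM1. Syne2 regions at 149 and 187 kb were in 3 and 4 libraries, at 15.4 to 44.9. The Lmna region at 26.1 kb, described above, held 1 coding summit, and a Lmnb1 region at 32.2 kb was in Input replicate 1 and Myc replicate 1, at 23.7 and 24.8. Sun2, Syne3, Lmnb2, Emd and Lbr had no coding-exon region.

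**Figure D5:**
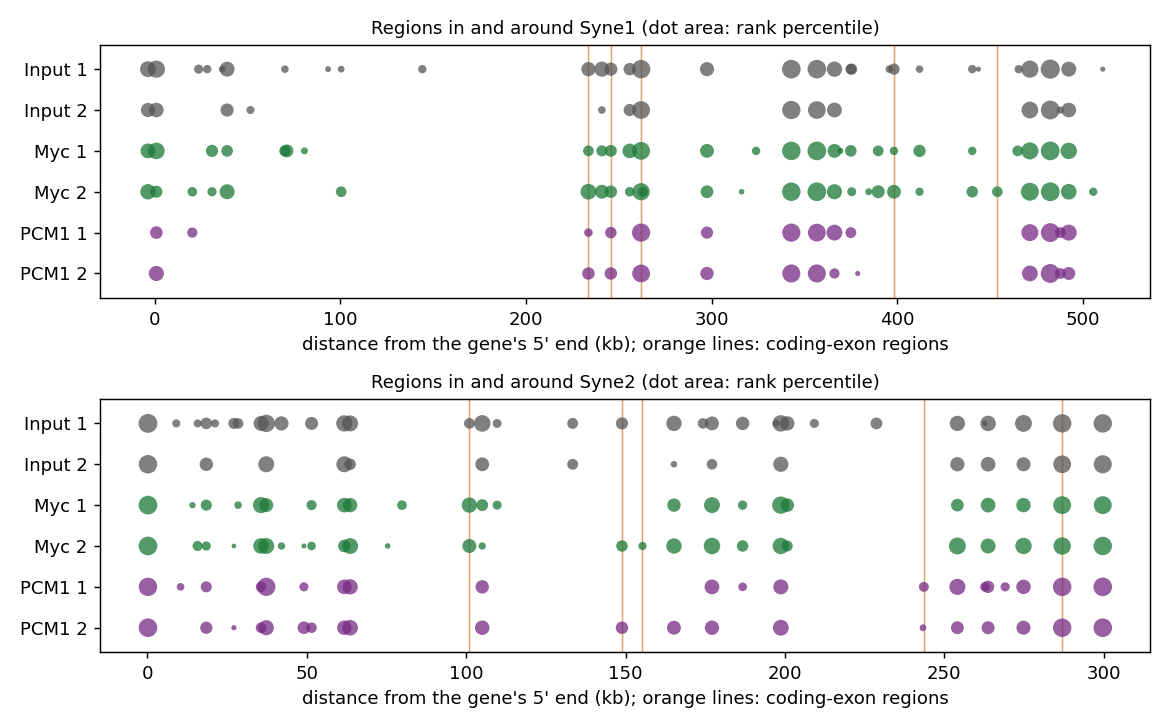
Merged regions along Syne1 (top) and Syne2 (bottom) by distance from the 5' end in kb, 1 row per library, with dot area growing with the rank percentile and orange lines at regions whose strongest summit lies in a coding exon. The rightmost orange line of Syne2, at 287 kb, has dots in all 6 rows.

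Other genes of the nuclear envelope were compared by the same promoter measure. All 18 genes of the inner membrane and lamina partners, from Tmpo, which encodes the LAP2 proteins, to the lamin-processing protease gene Zmpste24, had a promoter peak in all 6 libraries, beside 58.9% of all genes. Their median percentile was between 94.4 and 97.4 over the libraries. Zmpste24 was the lowest, from 55.5 in Input replicate 2 to 83.9 in Myc replicate 1. Of 6 LINC genes known from germ line, hair cells or blood, 4 (Sun3, Spag4, Ccdc155 and Lrmp) had one in all 6, Syne4 had one in PCM1 replicate 2 alone, at 20.6, and Sun5 had none.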

How the data were processed

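Omni-ATAC-Seq libraries of mouse hearts were analysed from the peak lists that the authors deposited, 1 per library. The authors used fastq-mcf for trimming, Bowtie2 2.3.3.1 for mapping to mm10 and Picard 2.2.1 for duplicates, removed blacklisted regions, shifted alignments for Tn5 and called peaks with MACS2 2.1.0.20160309, per the methods and the submitters' processing notes. The fold is the authors' ratio of summit pileup to local background, and the significance of each summit was deposited as -log10 of its p-value and of its q-value. Read counts were not used.

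Pileup and background were solved from the fold and p-value, and at least 99.998% of pileups per library were whole within 0.02. The computations used Python 3.11.15, scipy 1.17.1, pandas 2.3.3 and numpy 2.4.6, and the plots matplotlib 3.10.9. The code was tested on simulated data. Peaks were classed by summit in the order promoter (1 kb), coding exon, other exon, intron, neighbouring promoter and flank. Named regions were the strongest promoter region of each gene, all Sun1 coding-exon regions, those of other genes in 2 or more libraries, the strongest shared non-promoter region of each gene, and up to 3 regions particular to a group. The genes, lists and rules were chosen with earlier results of these data known. Groups were taken from the labels, and no test was run. The likeness to Sun1 was to name 5 genes, but those after Camta1 and Col28a1 were ties in alphabetical order and are not named.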

Additional observations from a re-analysis of the deposited data

How the results depend on the processing

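No paired analysis was possible because the results are ranks and counts of peaks given without a test. In the paper the input was an aliquot of the cushion nuclei, and the sample titles do not tell which libraries share a preparation. Alternatives were a q-value of at most 0.01, the same number of peaks in every library, other promoter widths, ranks by fold, starts of all transcripts, a flank of 2 kb, merging of peaks up to 200 bp apart and each library left out, and, chosen after seeing the data, complete starts and each captured group left out. Of 187 values, 160 stayed within 1.5 times the reported count or within 1 SD of the reported percentile, and 27 did not. Part of the 160 could not move. Leaving out a library does not touch the promoter medians or window peak counts of the other groups, nor the Sun1 counts of any library kept. A q-value of at most 0.01 changed none of the counts. All 10 genes had a promoter peak in all libraries under every alternative run except a promoter of 200 bp, where 8 did. The regions in all libraries stayed between 57 and 64 when 1 library was left out, a change that can hardly lower either count. With the same number of peaks per library, the median promoter percentile was 91.3 in Myc and 94.0 in PCM1, and regions particular to Input, Myc and PCM1 numbered 0, 1 and 3. With a promoter of 200 bp, the Myc median was 93.6, and ranked by fold the medians were 89.3 in Input, 90.2 in Myc and 90.6 in PCM1. Regions particular to PCM1 numbered 2 when peaks up to 200 bp apart were merged, between 1 and 4 with 1 library left out, and those of Myc between 2 and 9, where 9 is the value without Input replicate 1, which is also the library behind the 4 of PCM1. Sun1 coding-exon peaks numbered 1 in Myc replicate 2 with the same number of peaks per library, and 2 in PCM1 replicate 1 with a promoter of 200 bp. With a promoter of 3 kb they numbered 1, 1, 0 and 1 in the Myc and PCM1 libraries. With any overlap with coding sequence they numbered 1 in each Input library and 2 in PCM1 replicate 1, from the peak over exon 18. With complete starts they numbered 4, 4, 3 and 7. Apart from the rules on promoters, starts and overlap, whose construction moves peaks between classes, the cause of these shifts was not tested. Depth limits the absence of peaks, most of all in the shallow libraries.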
